A study of Mus musculus with 12 samples.

Results

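The 10 genes described here are regulators, targets and enzymes of the hypoxia and glycolysis programme: Hif1a, Vegfa, Slc2a1, Slc2a3, Aldoc, Pgk1, Ldha, Pdk1, Bnip3 and Ndrg1. Every probe set that the array's annotation assigns to 1 of these symbols alone was taken, which gave 13 probe sets of 35474 on the array and 10 genes of 19935 with such a probe set. The genes were picked in knowledge that members move in both directions under estradiol (E2), so the number that changed describes a chosen group. RNA came from hematopoietic stem cells (HSCs) of mice, which sustain every blood lineage and reside in bone marrow. They were sorted by flow cytometry as CD150+, CD48-, c-kit+, Sca-1+ and lineage-, in lots of 5000 to 7000 cells. The 4 groups were males given E2, males given oil, females given E2 and females given oil, each with 3 biological replicates from 3 mice. All mice were young adults of 2 to 3 months, fed freely, and all received 100 µL of corn oil under the skin, which carried 2 µg of E2 in the E2 groups. The labels give neither the number of doses, nor the time to harvest, nor the strain.

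HIF-1α, the product of Hif1a, is the oxygen-regulated subunit of the transcription factor HIF-1. In well oxygenated cells prolyl hydroxylases mark the protein for destruction through the VHL ubiquitin ligase, so that HIF-1 activity is set largely by protein stability and can move without a change in Hif1a RNA. HIF-1 raises genes of glucose uptake, glycolysis, lactate production, mitochondrial turnover and blood vessel growth, and adult HSCs are known for relying on glycolysis more than their progeny do. RNA levels of these genes report on neither oxygen tension nor glycolytic flux, which were not measured.

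The arrays were of similar brightness, with medians between 143 and 159. All 12 arrays matched the sex in their labels by Xist and Y-linked genes. Values below an intensity of 182, the median over genes, were treated as close to background, and 9967 genes lay above it. All 10 hypoxia and glycolysis genes did so, and all 6 HSC markers with a probe set of their own (Procr, Slamf1, Kit, Mecom, Hlf and Tek) did too. Averaged over the sexes, Procr and Kit fell under E2 by 0.47 and 0.32 on the log2 scale (limma adjusted p under 0.05). Among all genes 5.78% fell at that threshold. The other 4 HSC markers did not pass, with log2 fold changes between -0.27 and 0.13, and 2 of the 6 lay above 0. Markers of some other blood cells were mostly dim, with 4 of 4 erythroid, 4 of 5 monocyte, 3 of 4 B cell and 4 of 6 T and NK cell markers below 182. By contrast, 7 of 8 granulocyte, 5 of 6 megakaryocyte and 3 of 4 multipotent progenitor markers lay above it. The summed intensity of the granulocyte markers ranged from 5040 to 19565 over the 12 arrays. In sorted cells measured in bulk, fewer cells of a type and less RNA per cell cannot be told apart.

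HIF-1 binds DNA at hypoxia response elements, whose core reads ACGTG or GCGTG. Promoter windows from RefSeq (GRCm38.p6), each running from 250 bases before to 50 bases after a gene start, were found for 8 of the 10 genes, in 12 windows because several genes have more than 1 start; no window is shown for Slc2a3 and Ndrg1. Shown here are 4 windows, of a gene that rose (Pgk1), of 2 genes that fell (Aldoc and Bnip3) and of a gene that did not pass the test (Ldha), with the core on either strand in capitals and, for Aldoc and Ldha, at the first listed start.
Pgk1, chrX:106186850-106187149, plus strand: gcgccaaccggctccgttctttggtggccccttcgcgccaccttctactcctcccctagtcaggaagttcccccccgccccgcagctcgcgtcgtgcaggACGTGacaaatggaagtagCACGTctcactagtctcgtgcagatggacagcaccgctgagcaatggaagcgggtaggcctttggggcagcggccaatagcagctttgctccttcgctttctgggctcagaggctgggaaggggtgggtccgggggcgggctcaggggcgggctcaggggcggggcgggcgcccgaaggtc
Aldoc, chr11:78322823-78323122, plus strand: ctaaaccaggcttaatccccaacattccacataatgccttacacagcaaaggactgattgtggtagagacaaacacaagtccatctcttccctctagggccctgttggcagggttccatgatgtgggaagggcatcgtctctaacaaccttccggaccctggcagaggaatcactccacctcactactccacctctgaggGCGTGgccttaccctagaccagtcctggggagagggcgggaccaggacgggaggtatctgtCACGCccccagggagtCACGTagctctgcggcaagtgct
Bnip3, chr7:138909457-138909756, minus strand: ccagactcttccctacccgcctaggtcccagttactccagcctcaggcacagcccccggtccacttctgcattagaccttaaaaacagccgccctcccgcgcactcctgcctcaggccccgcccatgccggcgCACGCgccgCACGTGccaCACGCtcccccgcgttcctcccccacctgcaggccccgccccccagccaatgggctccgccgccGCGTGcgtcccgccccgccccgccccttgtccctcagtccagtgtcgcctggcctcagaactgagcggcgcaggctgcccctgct
Ldha, chr7:46845554-46845853, plus strand: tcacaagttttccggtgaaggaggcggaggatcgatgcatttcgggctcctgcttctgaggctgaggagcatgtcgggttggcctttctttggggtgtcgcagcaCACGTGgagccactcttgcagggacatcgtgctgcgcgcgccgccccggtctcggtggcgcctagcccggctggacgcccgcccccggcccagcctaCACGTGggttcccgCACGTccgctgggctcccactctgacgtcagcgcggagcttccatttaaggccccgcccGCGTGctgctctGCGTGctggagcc

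The letters ACGTG or GCGTG, searched on both strands and therefore also as CACGT and CACGC, stood in 10 of the 12 windows and in at least 1 window of each of the 8 genes. They stood in 43.8% of all 32851 promoter windows, so their presence is common. The Ldha window held 7 matches, the Bnip3 window 5, the Aldoc window 3 and the Pgk1 window 2. The palindrome CACGTG, the E-box, holds the core on both strands and counts as 2 matches. It stood in 3 of the 12 windows, 1 each of Hif1a, Ldha and Bnip3, and in 7.15% of all windows. The full palindrome of the estrogen response element, GGTCA and TGACC with any 3 bases between them, stood in 0 of the 12 windows and in 0.0700% of all windows. Because each of the 8 genes held the core letters, their presence could not set apart genes that rose, fell or did not pass. Slc2a3 and Ndrg1, which fell, had no window to search, and a match shows no binding.

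E2 was set against oil to ask how the hormone changes gene expression in HSCs of either sex. Averaged over the sexes, 2 of the 10 genes rose, Vegfa and Pgk1, and 4 fell, Ndrg1, Aldoc, Slc2a3 and Bnip3, while Hif1a, Ldha, Pdk1 and Slc2a1 did not pass. The largest change was in Ndrg1, whose mean intensity was 311 ± 30.5 in E2-treated males against 754 ± 81.2 in oil-treated males, and 252 ± 62.8 in E2-treated females against 612 ± 37.7 in oil-treated females (SD, n = 3). Among all 9967 genes, 8.9% were called by limma at an adjusted p under 0.05, 3.12% higher and 5.78% lower. The median log2 fold change of the 10 genes was 0.01, beside -0.01 over all genes tested. In 5 of the 10 genes, Vegfa, Pgk1, Aldoc, Slc2a3 and Ndrg1, the E2 and oil arrays did not overlap in both sexes, which held for 7.19% of all genes. In males alone 7 of the 10 genes had no overlap, with Ldha and Bnip3 added, against 26.5% of all genes, and in females alone 5 of the 10 did, against 20.1%.

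**Figure D1:**
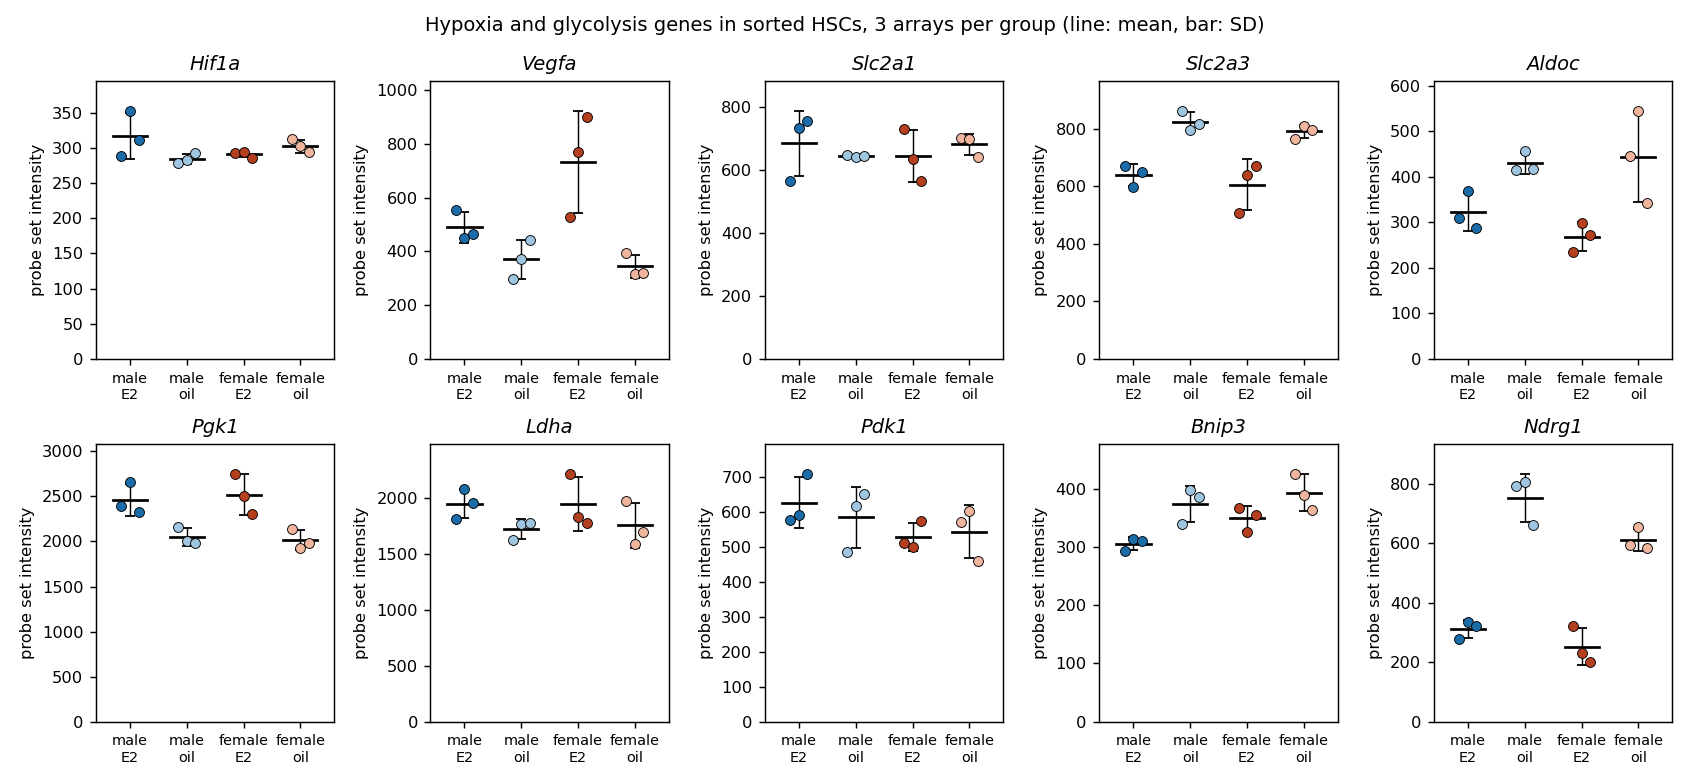
Probe set intensity (linear axis from 0) of the 10 genes on every array, for males given E2, males given oil, females given E2 and females given oil; points are arrays, lines are means and bars are SD (n = 3). The E2 arrays of Ndrg1 lie between 202 and 334 and its oil arrays between 586 and 807, while the groups of Hif1a, Slc2a1 and Pdk1 overlap.

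The regulator itself, Hif1a, did not pass the test. It read 288, 352 and 312 on the male E2 arrays and 278, 282 and 292 on the male oil arrays. In females it read 292, 293 and 286 under E2 and 312, 302 and 293 under oil. The groups overlapped in both sexes, although the highest of all 12 values was male E2 replicate 2. The averaged log2 fold change was 0.05 ± 0.06 (SE; limma adjusted p = 0.671), with a 95% interval of -0.08 to 0.18, so a change in either direction of up to those bounds fits the data.

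Vegfa, which encodes the secreted ligand that drives endothelial growth and is a classic HIF-1 target, rose. It read 556, 449 and 466 on the male E2 arrays and 298, 373 and 441 on the male oil arrays. Female arrays read 527, 770 and 902 under E2 and 395, 317 and 321 under oil. E2 arrays lay above oil arrays in both sexes, narrowly in males, and female E2 replicate 1 stood well below the other two of its group. Over both sexes the log2 fold change was 0.74 ± 0.13 (SE; limma adjusted p = 0.00391), a 1.67-fold level. In females alone it was 1.06 ± 0.18 (adjusted p = 0.0085), and 0.055 by limma on the female arrays alone. In males it was 0.42 ± 0.18 and did not pass (adjusted p = 0.317).

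Both glucose transporters of the group admit glucose by facilitated diffusion. Slc2a1 encodes GLUT1, the widespread form, and Slc2a3 encodes GLUT3, a form of high affinity. Slc2a3 fell, with 671, 598 and 649 on the male E2 arrays against 861, 796 and 814 on the male oil arrays. In females Slc2a3 read 506, 639.6 and 670.4 under E2 against 765, 810.2 and 795 under oil. No E2 array reached the lowest oil array of its sex. For Slc2a3 the averaged log2 fold change was -0.38 ± 0.07 (SE; limma adjusted p = 0.00624), a 0.768-fold level. The change was of like size in each sex, at -0.37 in males (adjusted p = 0.109) and -0.39 in females (adjusted p = 0.0522). With all arrays in the main setting it did not pass in either sex. It did pass in males without female E2 replicate 1 (adjusted p = 0.02) and in females without female E2 replicate 3 (adjusted p = 0.0281).

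Slc2a1 did not pass. It read 566, 733 and 755 on the male E2 arrays and 648, 642 and 644 on the male oil arrays. In females it read 731, 636 and 567 under E2 and 703, 699 and 643 under oil. The oil arrays lay close together and the E2 arrays scattered to both sides of them. Its averaged log2 fold change was -0.01 ± 0.08 (SE; limma adjusted p = 0.975), with a 95% interval of -0.18 to 0.17. The difference between the responses of the transporters was not tested.

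Of the glycolytic enzymes, the aldolase Aldoc fell and the phosphoglycerate kinase Pgk1 rose. Aldolase splits fructose-1,6-bisphosphate into its trioses, and the C form is best known from brain. Aldoc read 310.05, 369 and 288 on the male E2 arrays against 416, 457 and 417 on the male oil arrays. In females Aldoc read 236, 298 and 272 under E2 against 446, 544 and 343 under oil. E2 arrays lay below oil arrays in both sexes, and the female oil arrays were the most spread. For Aldoc the averaged log2 fold change was -0.56 ± 0.11 (SE; limma adjusted p = 0.00587), a 0.677-fold level. In females alone it was -0.70 ± 0.15 (adjusted p = 0.022). That call ended without female oil replicate 1 (adjusted p = 0.0704) or female oil replicate 2 (adjusted p = 0.101), with no intensity filter (adjusted p = 0.0558), and by limma on the female arrays alone (adjusted p = 0.125). In males it was -0.42 ± 0.15 and did not pass (adjusted p = 0.205).

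Phosphoglycerate kinase makes the first ATP of glycolysis. Pgk1 read 2394, 2657 and 2324 on the male E2 arrays against 2164, 2003 and 1986 on the male oil arrays. Female arrays read 2754, 2502 and 2302 under E2 against 2141, 1928 and 1981 under oil. Every E2 array lay above every oil array in each sex. Over both sexes the log2 fold change was 0.29 ± 0.06 (SE; limma adjusted p = 0.0148), a 1.22-fold level, with 0.26 in males (adjusted p = 0.201) and 0.32 in females (adjusted p = 0.0761; 0.0421 without female E2 replicate 3). Pgk1 had 3 probe sets. Of these, 2 held identical values on all 12 arrays and the third differed from them by at most 2.74%, so they are a single measurement and not 3. Gene families with near-identical copies can share such probes.

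Lactate dehydrogenase A turns pyruvate into lactate. Ldha read 1817, 2078 and 1957 on the male E2 arrays against 1621, 1771 and 1776 on the male oil arrays. In females it read 2220.5, 1836 and 1780.2 under E2 against 1978, 1589 and 1702 under oil. Male arrays did not overlap and female arrays did. The averaged log2 fold change was 0.16 ± 0.08 (SE; limma adjusted p = 0.208), with a 95% interval of -0.0016 to 0.33, so Ldha did not pass.

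Pyruvate dehydrogenase kinase 1, encoded by Pdk1, phosphorylates pyruvate dehydrogenase and so holds pyruvate back from oxidation in the mitochondria. Pdk1 read 578, 593 and 710.02 on the male E2 arrays and 486, 618 and 651 on the male oil arrays. Female arrays read 511, 501 and 575 under E2 and 571, 603 and 459 under oil. The groups overlapped in both sexes. The averaged log2 fold change was 0.04 ± 0.09 (SE; limma adjusted p = 0.863), with a 95% interval of -0.17 to 0.24.

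Bnip3, which encodes a mitochondrial outer membrane receptor for mitophagy, fell by a small margin. It read 294, 313.5 and 310.4 on the male E2 arrays against 339, 398 and 385 on the male oil arrays. In females it read 367, 325 and 355 under E2 against 426, 389.5 and 363 under oil. Male arrays did not overlap, whereas female E2 replicate 1 reached above the lowest female oil array. The averaged log2 fold change was -0.23 ± 0.06 (SE; limma adjusted p = 0.0448). Leaving out any 1 of 8 arrays ended the call (adjusted p between 0.0753 and 0.11), namely male E2 replicates 1 to 3, male oil replicates 2 and 3, female E2 replicate 2, and female oil replicates 1 and 2. A second Bnip3 probe set had means of 223 ± 20.7 under E2 and 296 ± 42.0 under oil in males, and 248 ± 46.6 under E2 and 323 ± 46.8 under oil in females (SD, n = 3). Tested among 10972 probe sets, it had a log2 fold change of -0.40 ± 0.11 (limma adjusted p = 0.0423).

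Ndrg1 encodes a stress-responsive cytoplasmic protein that is a widely used marker of hypoxia. It read 277, 334 and 323 on the male E2 arrays against 794, 807 and 660.1 on the male oil arrays. Female arrays read 323, 231 and 202 under E2 against 595, 655 and 586 under oil. The gap between the E2 and oil arrays was wider than the spread of any group. Over both sexes the log2 fold change was -1.29 ± 0.10 (SE; limma adjusted p = 1.34e-05), a 0.41-fold level, with -1.27 ± 0.15 in males (adjusted p = 0.000795) and -1.30 ± 0.15 in females (adjusted p = 0.000512). It was -1.38 without female E2 replicate 1. Ndrg1 was the only one of the 10 genes called in males, where 1.43% of all genes were called, 0.572% higher and 0.863% lower. Slc2a3 joined it without female E2 replicate 1. In females 3 of the 10 were called, Ndrg1, Vegfa and Aldoc, against 3.56% of all genes, 0.813% higher and 2.75% lower. Without female E2 replicate 3 the female count was 5, with Pgk1 and Slc2a3 added.

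**Figure D2:**
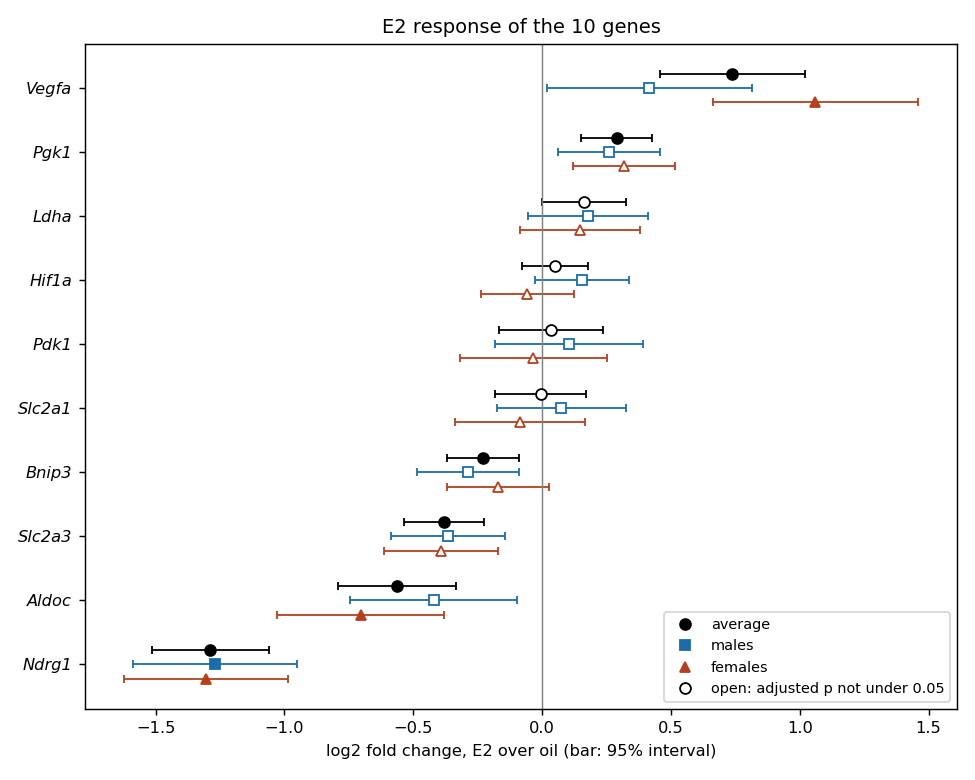
Log2 fold change of E2 over oil for the 10 genes, averaged over the sexes (black circles), in males (blue squares) and in females (red triangles), with 95% intervals from limma; filled symbols passed at an adjusted p under 0.05. Ndrg1 lies lowest at -1.29 and Vegfa highest at 0.74 in the average, and the intervals of the average for Hif1a, Ldha, Pdk1 and Slc2a1 include 0.

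The size of the response was compared between the sexes by the female response minus the male response. None of the 10 genes passed in limma's test of this difference (lowest adjusted p = 0.907), and 1 of them, Vegfa, had an unadjusted p under 0.05. Among all 9967 genes 0.01% were called, and 535 had an unadjusted p under 0.05. The Vegfa response was larger in females by 0.64 ± 0.26 on the log2 scale (SE; unadjusted p = 0.0278), with a 95% interval of 0.08 to 1.21. For Ndrg1 the difference was -0.03 ± 0.21, with an interval of -0.48 to 0.42, and for Slc2a3 it was -0.03 ± 0.14, with an interval of -0.34 to 0.28. Under oil, 0 of the 10 genes passed between females and males in limma (lowest adjusted p = 0.986), against 0.0401% of all genes called. An unadjusted p under 0.05 was found for 0 of the 10, against 497 of all 9967 genes. Ndrg1 came nearest, at 612 ± 37.7 in females and 754 ± 81.2 in males (SD, n = 3), a log2 difference of -0.30 ± 0.15 (unadjusted p = 0.0665).

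The 6 calls differed in how firmly they held. Ndrg1, Vegfa, Aldoc, Slc2a3 and Pgk1 were called under all 21 alternatives of the averaged comparison that gave a log2 fold change, 12 of which left out 1 array each. Their highest adjusted p was 0.000105, 0.0142, 0.0199, 0.021 and 0.0489, in that order. Bnip3 was called under 7 of the 21.

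**Figure D3:**
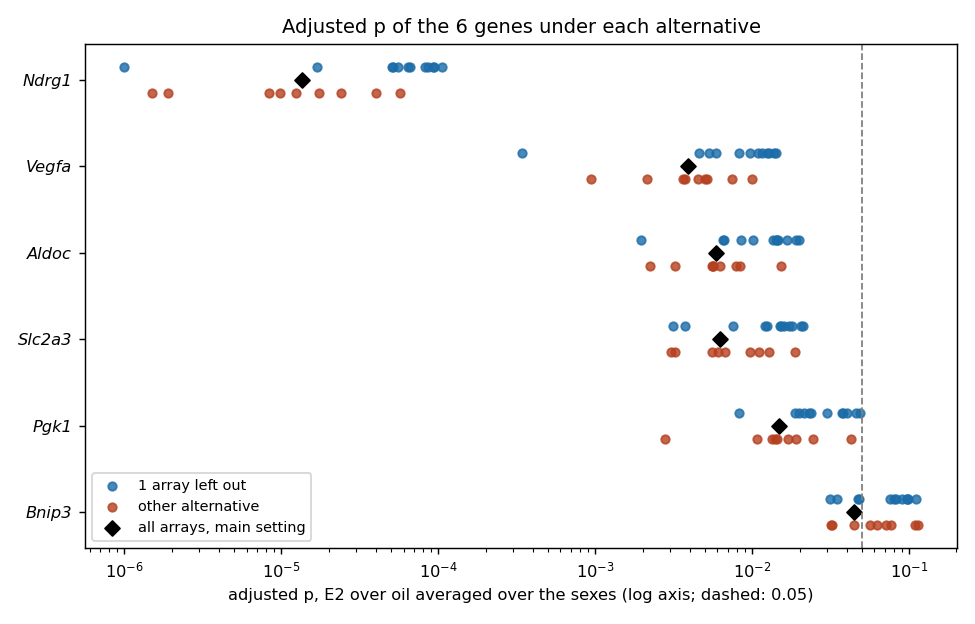
Adjusted p (log axis) of the 6 called genes for E2 over oil averaged over the sexes, with all arrays in the main setting (black diamonds), with 1 array left out (blue) and under the other alternatives (red); the dashed line marks 0.05. Pgk1 comes closest to the line among the 5 genes that stay below it, at 0.0489, and Bnip3 spans it from 0.0311 to 0.113.

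Of 17 genes of the machinery that controls HIF-1, 15 lay above 182, and Epas1 and Arnt2 were dimmer. Of the 15, 0 were called higher, 2 were called lower and 13 did not pass, beside 3.12% and 5.78% of all genes called higher and lower. In males alone limma called 0 of the 15, with 1 at an unadjusted p under 0.05, and in females alone it called 2. Of all 9967 genes, 1470 had such an unadjusted p in males. The coactivator gene Crebbp fell by 0.29 ± 0.05 (SE; limma adjusted p = 0.00626), with 1162 ± 33.4 under E2 against 1346 ± 32.1 under oil in males and 1038 ± 56.2 against 1332 ± 63.4 in females (SD, n = 3). Hif1an, which encodes the asparagine hydroxylase that blocks HIF coactivator binding, fell by 0.37 ± 0.09 in the average (adjusted p = 0.0276). In females Hif1an fell by 0.63 ± 0.13 (limma adjusted p = 0.0217), without overlap of the arrays. In males its log2 fold change was -0.12 ± 0.13 (limma adjusted p = 0.752), and the arrays overlapped. The female response minus the male response was -0.51 ± 0.19 and did not pass (limma adjusted p = 0.907). The female E2 mean of Hif1an was 136, below the filter value. Its averaged call ended without male oil replicate 2, female oil replicate 3 or female E2 replicate 2, with adjusted p from 0.0516 to 0.0581. The prolyl hydroxylase genes Egln1, Egln2 and Egln3, Vhl, and the partner gene Arnt did not pass. The median log2 fold change of the 15 genes was -0.06.

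The other glycolysis genes tested stayed closer to the oil level than Aldoc and Pgk1. Of 27 enzyme genes, 21 had a probe set of their own and 16 lay above 182. Gapdh, Eno1 and Gpi1 were among those without one. Pgk1 was called higher and Aldoc was called lower, beside 3.12% and 5.78% of all genes called higher and lower. The other 14 did not pass, with log2 fold changes between -0.15 and 0.16, and the median over the 16 was 0.02. Aldoa, the other aldolase measured above the filter, had a log2 fold change of 0.02 ± 0.05 (limma adjusted p = 0.877). Of 14 glucose and lactate transporter genes, 7 lay above 182. Of these Slc2a3 was called lower, beside 5.78% of all genes called lower, and the other 6 did not pass.

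A further list held genes of pyruvate transport into mitochondria and of pyruvate dehydrogenase and its control. Among its 11 tested genes, Pdk2 was called lower, beside 5.78% of all genes called lower, and 10 did not pass. Pdk2, another pyruvate dehydrogenase kinase, averaged 306 ± 38.8 under E2 and 529 ± 43.5 under oil in males, and 273 ± 34.05 under E2 and 495 ± 71.2 under oil in females (SD, n = 3). Its log2 fold change was -0.82 ± 0.09 (SE; limma adjusted p = 0.000158), with no overlap in either sex, while those of Pdk1 and Pdk3 were 0.04 and 0.16 and did not pass. Of 7 pentose phosphate genes and 15 genes of the TCA cycle, limma called 0, beside 8.9% of all genes. There were 2 and 1 genes at an unadjusted p under 0.05, against 2453 of all 9967 genes. The smallest p there belonged to H6pd, at -0.19 ± 0.06 (adjusted p = 0.0766), and to Idh3a, at 0.22 ± 0.09 (adjusted p = 0.159). The TCA cycle list had a median of 0.06, and 13 of its 15 genes lay above 0.

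Among VEGF ligands and receptors only 3 of 10 genes lay above 182. Vegfa and Vegfc, the ligand best known for lymphatic growth, were called higher, and Vegfb did not pass, beside 3.12% of all genes called higher. The receptor genes Kdr, Flt1, Flt4, Nrp1 and Nrp2 were all below the filter. Vegfc had a log2 fold change of 0.38 ± 0.11 (SE; limma adjusted p = 0.043). Leaving out female oil replicate 3 or female E2 replicate 1 kept that call, and leaving out any 1 of the other 10 arrays ended it (adjusted p between 0.0531 and 0.102).

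Of 10 tested mitophagy genes, 0 rose and 4 fell in the average, Bnip3, its paralog Bnip3l, the autophagosome protein gene Map1lc3b and the autophagy kinase gene Ulk1, beside 5.78% of all genes called lower. Their median log2 fold change was -0.22, beside -0.01 over all genes. In males and in females alone limma called 0 of the 10, with 5 and 4 at an unadjusted p under 0.05. Of all 9967 genes, 1470 and 1853 had such an unadjusted p. The calls of Bnip3, Bnip3l and Ulk1 were each lost when certain single arrays were left out. Map1lc3b averaged 1236 ± 86.8 under E2 and 1497 ± 69.7 under oil in males, and 1149 ± 131 under E2 and 1482 ± 131 under oil in females (SD, n = 3), a log2 fold change of -0.32 ± 0.07 (SE; limma adjusted p = 0.0151) that was called with each array left out (highest adjusted p = 0.0492). Ulk1 had -0.32 ± 0.08 (adjusted p = 0.0208), and lost its call without male E2 replicate 2, male oil replicate 2, or female oil replicates 2 or 3 (adjusted p from 0.0565 to 0.0615). Bnip3l had -0.24 ± 0.07 (adjusted p = 0.0443), a call kept when female E2 replicate 3 was left out and lost when any 1 of the other 11 arrays was (adjusted p between 0.0628 and 0.117).

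Of 19 tested HIF target genes outside the 10, 2 rose, 2 fell and 15 did not pass, with a median of -0.09. Among all genes 3.12% were called higher and 5.78% lower, a share that also stands beside the lists below. Fam162a, a mitochondrial protein gene, rose by 0.23 ± 0.06 (SE; limma adjusted p = 0.0403), and Tfrc, the transferrin receptor gene, rose by 0.36 ± 0.10 (adjusted p = 0.0491). Bnip3l fell as given above, and Selenbp1, a selenium-binding protein gene, fell by 0.24 ± 0.07 (adjusted p = 0.0462). None of these 4 calls was firm. Fam162a kept its call only without female E2 replicate 3, Tfrc only without male E2 replicate 1, female oil replicate 1 or female E2 replicate 3, and Selenbp1 only without female E2 replicates 2 or 3. Without any 1 of the other arrays the adjusted p ran from 0.0549 to 0.112 for Fam162a, 0.0731 to 0.125 for Tfrc and 0.052 to 0.119 for Selenbp1. Ndrg1 was the only 1 of 3 tested NDRG family genes that was called, with Ndrg2 at 0.09 and Ndrg3 at -0.14. Of 9 regulators of stem cell metabolism, Foxo3 was called lower at -0.25 ± 0.07 (adjusted p = 0.0475), a call kept when female E2 replicate 3 was left out and lost when any 1 of the other 11 arrays was (adjusted p between 0.0658 and 0.118).

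**Figure D4:**
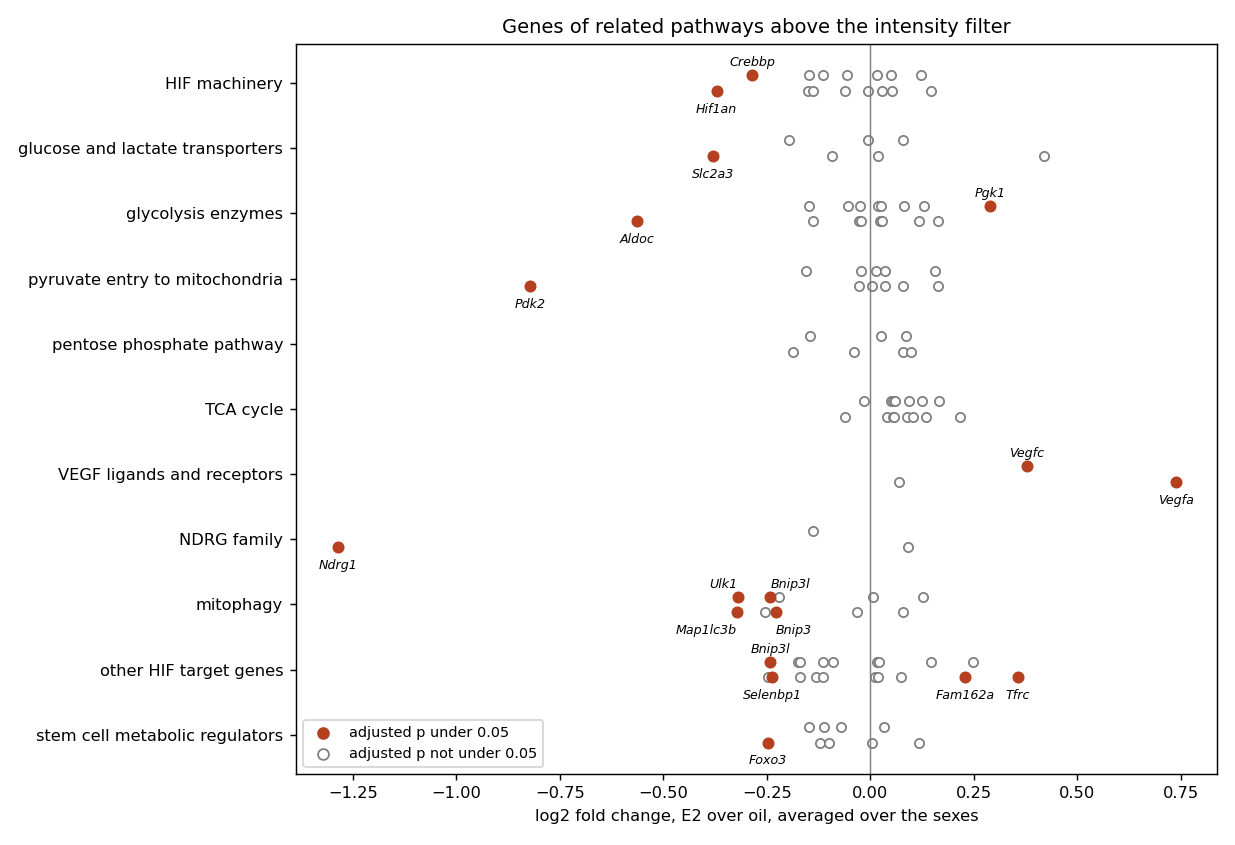
Log2 fold change of E2 over oil, averaged over the sexes, for genes of 11 related lists above the intensity filter; each point is a gene, filled in orange-red where the adjusted p was under 0.05 and open where it was not. Ndrg1, Pdk2 and Aldoc lie farthest to the left at -1.29, -0.82 and -0.56 and Vegfa farthest to the right at 0.74, while the TCA cycle and pentose phosphate genes hold no filled point.

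Genes of other groups were also called on the same arrays, beside 8.9% of all genes called, 3.12% higher and 5.78% lower. Of 5 tested megakaryocyte markers, 4 fell (Plek, Pf4, Gp5 and Itga2b) and Gp9 rose, and their summed intensity over 6 genes was 2306 to 2658 under E2 against 3129 to 3496 under oil in males, and 1676 to 2454 against 3199 to 3429 in females. Of 8 tested immediate early genes 7 fell (Egr1, Ier2, Ier3, Zfp36, Junb, Dusp1 and Jun), with a summed intensity over 10 genes of 3239 to 3595 under E2 against 5085 to 6427 under oil in males, and 3881 to 7122 against 8419 to 9965 in females. Of 12 S phase genes 4 rose (Tk1, Uhrf1, Cdc6 and Mcm5) and 8 did not pass. In males alone limma called 0 of 12 (8 at an unadjusted p under 0.05), and in females alone 1 of 12 (4 at an unadjusted p under 0.05). In the average all 12 S phase genes lay above 0 with an unadjusted limma p under 0.05, at a median log2 fold change of 0.39. All 12 also lay above 0 in each sex. Their summed intensity was 12976 to 15320 under E2 against 9667 to 11226 under oil in males, and 10999.9 to 17129 against 9124 to 11942 in females, the 17129 being female E2 replicate 1. Leaving out 1 array ended the call of Gp9 in 1 of 12 cases, Dusp1 in 6, Mcm5 in 8 and Jun in 9, and of the next-named genes Cd79b in 1, Cd34 in 4 and Satb1 in 8. All 3 tested multipotent progenitor markers fell (Flt3, Cd34 and Satb1), as did the only tested B cell marker, Cd79b. Of 2 tested T and NK cell markers Nkg7 fell, and the other did not pass, at -0.0097. Of 3 tested stroma and endothelium markers Col1a2 rose and 2 did not pass, at -0.23 and 0.14. The part of all these other groups in the changes of the 10 genes was not tested. Of 7 tested granulocyte markers Prtn3 fell, by 0.29 (limma adjusted p = 0.0315), a call that 7 of the 12 left-out arrays ended (highest adjusted p = 0.0842). The other 6 did not pass, with averaged log2 fold changes between -0.94 and -0.23. Sums over 8 granulocyte genes were 6775 to 12123 under E2 and 7306 to 15228 under oil in males. In females they were 5040 to 13362 and 8835 to 19565, and the ranges overlap in both sexes.

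The genes whose profiles came closest to Vegfa and to Ndrg1, the genes with the largest rise and the largest fall, were sought among all 9967 by the root mean square difference of log2 values over the 12 arrays, each gene centred on its own mean. Nearest to Vegfa were Haspin, a mitotic histone kinase gene, at 0.16, the myeloid transcription factor gene Cebpa at 0.20, the F-box gene Fbxo7 at 0.23 and the deubiquitinase gene Stambpl1 at 0.26. Nearest to Ndrg1 were the glycosyltransferase gene Galnt6, the transcript I730030J21Rik and the glutathione transferase gene Gstm3, each at 0.24, and Gstm1, also a glutathione transferase gene, at 0.25. None of these 8 belongs to the hypoxia and glycolysis group.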

How the data were processed

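The table the authors deposited gives intensity on a linear scale, with 12 Affymetrix arrays in columns and 35474 probe sets in its rows. Biotinylated cDNA was made with the NuGEN Ovation Pico WTA V2 and Encore Biotin kits, per the labels' protocols. How probes were summarised, background-corrected and normalized was not found in the labels. Precision is limited by there being 3 arrays a group. Symbols came from the platform annotation (21780 probe sets with 1 symbol, 1605 with several, 12089 with none). Entrez identifiers of 21689 probe sets matched RefSeq (GRCm38.p6), which changed 0 symbols.

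Intensities were offset by 1 and log2 transformed. The brightest probe set stood for each of 19935 genes, and genes above the median (log2 7.52) were kept. limma 3.58.1 in R 4.3.3 fitted a mean for each of the 4 groups, followed by eBayes (residual degrees of freedom 8, prior 5.38). P-values were adjusted by Benjamini-Hochberg over 9967 genes, and calls were made at an adjusted p under 0.05. Fold changes on this scale understate changes of dim genes. Windows and tables were handled in Python 3.11.15 with pandas 2.3.3, and figures drawn with matplotlib 3.10.9.

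Members and lists were chosen with earlier results of these data known. Named were the 10 genes, up to 6 called genes per list (otherwise the gene of smallest p), called markers and the 4 nearest profiles of 2 members. Genes named beyond that rule (Aldoa, Pdk3, Vegfb, Ndrg2, Ndrg3, Slc16a1, Slc16a3 and those listed as not passing) were chosen after their values were seen. Genes without a 1-symbol probe set were not tested. Same-numbered replicates showed no clear sign of deviating together (correlation over 0.1 in 4 of 18 pairs). Their correlations ran from -0.26 to 0.20, against -0.33 to 0.28 between replicates of different number. With so few arrays a group, these correlations cannot decide whether the numbers pair the samples. On simulated data with 200 changed genes among 9967, the averaged comparison recovered 46% of changes of 0.3, 96% of 0.5 and 100% of 1 and of 2 on the log2 scale, with 4 false calls among 175. The simulated noise was normal and independent between genes, and 887 genes were called in the data, so these shares need not hold there.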

Additional observations from a re-analysis of the deposited data

Results flagged for a closer look

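Hif1a was singled out because all 3 male E2 arrays exceeded the male oil mean of 284, whereas all 3 female E2 arrays fell short of the female oil mean of 302. Its log2 fold change was 0.15 in males and -0.06 in females. The female response minus the male response was -0.21 ± 0.12 on the log2 scale (SE; limma unadjusted p = 0.0976, adjusted p = 0.954), so the difference did not pass.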

How the results depend on the processing

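Directions of the 6 called genes in the averaged comparison held under every alternative run. Bnip3 lost its call with quantile normalization (adjusted p = 0.0626), median centring (0.108), no filter (0.113), a 25th percentile filter (0.0711), trend and robust eBayes (0.0562) and the replicate block (0.0761), and the cause was not tested. With the replicate block 736 genes were called in the averaged comparison, 103 in males and 258 in females, and it changed no other call among the 10 genes. In the averaged comparison 887 genes were called, against 568 with no filter (more genes tested), 1459 at an adjusted p under 0.1, and 476 (without female oil replicate 2) to 1147 (without female E2 replicate 3) with 1 array left out; it was also over 1.5 times lower without male oil replicate 2 (539), male E2 replicates 2 or 3 (531 and 578) or female oil replicate 3 (567). In males 143 genes were called, against 80 with no filter, 409 with array weights, 390 on the male arrays alone, 264 at an adjusted p under 0.1, and 62 to 327 with 1 array left out (62 to 93 without any 1 male array, 327 without female E2 replicate 1). There, 2 of the 10 genes were called with array weights or on the male arrays alone, and 1 to 2 with 1 array left out. In females 355 genes were called, against 183 with no filter, 226 with array weights, 67 on the female arrays alone, 657 at an adjusted p under 0.1, and 115 to 549 with 1 array left out (115 to 173 without any 1 female oil array, 549 without female E2 replicate 1). There, 3 of the 10 genes were called, against 5 with trend and robust eBayes or at an adjusted p under 0.1, 1 on the female arrays alone, and 2 to 5 with 1 array left out. With 1 array left out, 1 to 2 genes were called for the difference of responses and 2 to 8 (4 with all arrays) between the sexes under oil, where no filter and array weights each gave 7. Signs near 0 turned for uncalled genes. With 1 array left out, averaged Pdk1 ran from -0.028 to 0.077 and averaged Slc2a1 from -0.053 to 0.060, and Slc2a1 was 0.0018 with median centring. In males Pdk1 ran from -0.023 to 0.19 and Slc2a1 from -0.0015 to 0.21. In females Pdk1 ran from -0.15 to 0.045 and Slc2a1 from -0.18 to 0.0017, and Pdk1 was 0.0049 with quantile normalization. The log2 fold change of Slc2a3 in males also passed with array weights (adjusted p = 0.0221) or on the male arrays alone (0.0372). In females Slc2a3 also passed with median centring (0.0463), an offset of 16 (0.0494) or trend and robust eBayes (0.0372). Pgk1 in females also passed with quantile normalization (0.0487) or trend and robust eBayes (0.026). Calls of other named genes in the averaged comparison also ended. With no filter these were Ulk1 (adjusted p = 0.0542), Dusp1 (0.0528), Hif1an (0.0662), Cd34 (0.0664), Satb1 (0.0664), Prtn3 (0.0789), Mcm5 (0.0822), Vegfc (0.0958), Fam162a (0.105), Tfrc (0.1099), Bnip3l (0.1098), Selenbp1 (0.115) and Foxo3 (0.116). A 25th percentile filter ended Mcm5 (0.0505), Vegfc (0.0595), Fam162a (0.065), Bnip3l (0.0689), Tfrc (0.0692), Selenbp1 (0.0722) and Foxo3 (0.073). Median centring ended Satb1 (0.0553), Prtn3 (0.0612), Fam162a (0.0635), Tfrc (0.066), Selenbp1 (0.0669), Bnip3l (0.0777) and Foxo3 (0.0898). Quantile normalization ended Satb1 (0.0588) and Selenbp1 (0.0633), and array weights ended Tfrc (0.0632). The replicate block ended Prtn3 (0.0502), Selenbp1 (0.0526), Bnip3l (0.0646), Foxo3 (0.0674), Fam162a (0.0694) and Tfrc (0.0785). Each fit without an array was left with 2 arrays for that group, whose spread was estimated jointly with the other groups.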

Other observations

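Lactate leaves and enters cells through the monocarboxylate transporters, and Slc16a1 and Slc16a3 fell short of the threshold. Slc16a1, which encodes MCT1, averaged 361 ± 50.01 under E2 and 257 ± 38.7 under oil in males, and 356 ± 88.3 under E2 and 278 ± 61.0 under oil in females (SD, n = 3). Its log2 fold change was 0.42 ± 0.13 (SE; limma adjusted p = 0.0659). Slc16a3, which encodes MCT4, a known HIF-1 target, averaged 183 ± 7.13 under E2 and 225 ± 25.5 under oil in males, and 201 ± 13.9 under E2 and 216 ± 11.9 under oil in females, a log2 fold change of -0.20 ± 0.07 (limma adjusted p = 0.0915). Slc16a3 lies close to the filter value of 182. Female arrays of both genes overlapped between E2 and oil. Slc16a1 passed only without female oil replicate 1 or female E2 replicate 3, and Slc16a3 only without male oil replicate 3. Both genes were chosen after their values were seen.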
